A study of Mus musculus with 23 samples.

Results

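10 genes of GABAergic interneurons were followed through 23 RNA sequencing libraries. They are the GABA-synthesizing enzymes Gad1 and Gad2, the vesicular transporter Slc32a1, the transcription factor Lhx6, the calcium-binding protein Pvalb, the neuropeptides Sst, Npy, Vip and Cck, and the secreted glycoprotein Reln. They were picked by name, not by a threshold on their values, and all 10 were found among 20863 gene names in the tables of cortex and lumbar spinal cord. The mice were C57BL/6 animals aged 6 months. NTg mice were nontransgenic, F08 mice expressed unexpanded human C9orf72 from a transgene, and F112 mice expressed the expanded form. The series title describes the transgenes as BAC constructs, large genomic inserts. Only 1 line stands for each transgene, so insertion site and copy number cannot be told apart from the repeat, and the labels do not state the sex of the animals. Cortex had 4 NTg, 4 F08 and 3 F112 libraries, and spinal cord had 4 of each, with mouse 6325 (F112) present in spinal cord alone.

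Inhibitory interneurons make GABA from glutamate with the enzymes GAD67 (Gad1) and GAD65 (Gad2) and load it into vesicles with the transporter VGAT (Slc32a1). In cortex, cells born in the medial ganglionic eminence need Lhx6 and express Pvalb (fast-spiking basket and chandelier cells) or Sst (often Martinotti cells, some with Npy), whereas Vip, Cck and Reln mark other classes, and Cck and Sst are also made by excitatory neurons of cortex or dorsal horn. In spinal cord, VGAT serves GABA and glycine neurons alike, and in brain the striatal projection neurons are GABAergic too. In tissue RNA, fewer cells of a type and less RNA per cell cannot be told apart.

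Sequences around the transcription starts are given for 4 of the genes, because levels of Slc32a1 and Gad2 were apart between cortex libraries with few and with many striatal transcripts, whereas those of Gad1 and Sst overlapped. Each runs from 250 bases before to 50 after a RefSeq start (GRCm38.p6), on the strand of the gene. The windows are chr2:158610508-158610807 (plus strand) for Slc32a1, chr2:22622077-22622376 (plus) for Gad2, chr2:70561879-70562178 (plus) for Gad1 and chr16:23890795-23891094 (minus) for Sst. Capitals mark TGACG on either strand, the core of the cAMP response element.
Slc32a1: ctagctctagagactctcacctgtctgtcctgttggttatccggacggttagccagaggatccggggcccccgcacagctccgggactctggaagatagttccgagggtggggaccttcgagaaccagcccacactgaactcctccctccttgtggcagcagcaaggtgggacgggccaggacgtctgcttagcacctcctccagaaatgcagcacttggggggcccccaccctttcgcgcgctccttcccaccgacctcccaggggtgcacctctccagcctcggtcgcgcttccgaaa
Gad2: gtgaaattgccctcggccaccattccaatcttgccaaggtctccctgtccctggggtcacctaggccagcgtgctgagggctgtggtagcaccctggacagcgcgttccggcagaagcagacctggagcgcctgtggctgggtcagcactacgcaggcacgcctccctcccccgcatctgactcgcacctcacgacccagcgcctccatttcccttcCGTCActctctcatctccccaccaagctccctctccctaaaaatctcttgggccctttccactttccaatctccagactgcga
Gad1: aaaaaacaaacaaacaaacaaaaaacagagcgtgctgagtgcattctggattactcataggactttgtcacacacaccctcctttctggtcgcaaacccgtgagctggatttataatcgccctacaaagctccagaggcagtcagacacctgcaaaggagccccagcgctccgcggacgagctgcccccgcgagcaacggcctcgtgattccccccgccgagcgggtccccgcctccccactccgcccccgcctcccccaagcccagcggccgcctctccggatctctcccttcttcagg
Sst: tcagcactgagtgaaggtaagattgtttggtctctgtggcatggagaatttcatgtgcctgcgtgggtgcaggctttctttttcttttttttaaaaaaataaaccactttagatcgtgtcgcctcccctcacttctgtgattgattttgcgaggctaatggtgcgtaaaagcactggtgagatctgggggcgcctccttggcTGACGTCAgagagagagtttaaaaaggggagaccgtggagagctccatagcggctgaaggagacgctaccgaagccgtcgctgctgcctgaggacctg
RefSeq windows were found for 10 of 10 genes, 13 windows in all. TGACG on either strand occurred in 4 of the 13 (Gad2, Cck, Vip and Sst), and in 20.8% of 32851 windows of all genes. In Sst the 2 strands' matches overlap to form TGACGTCA, which no other window of these genes held and which 1.79% of all windows hold. TAATTA, the core of many homeodomain sites, was in 0 of the 13 windows (5.29% of all), and TATAAA on either strand in 3 (13.6% of all). These are matches of letters, not measured binding.

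Values are RPKM, read numbers scaled to gene length and to the alignments of the library, as the authors computed them. Cortex libraries had 9398450 to 14715900 alignments, and those of spinal cord 28479400 to 38811100. Xist, a transcript of female cells, was at 23.6 RPKM or more in libraries of mice 6316 to 6319, 6322 and 6323. It was at 0.495 or less in those of mice 6320, 6321 and 6324 to 6327. Every genotype held mice of both kinds, and the part of sex in the levels was not tested. Mouse C9orf72 (3110043O21Rik) ranged in cortex over 3.05 to 4.20 RPKM for NTg, 5.51 to 7.44 for F08, and 9.54 to 10.7 for F112, and stood at 11.6 to 13.4 RPKM over all spinal cord libraries. Markers of excitatory cortical neurons summed to 205 to 398 RPKM in cortex libraries and 7.38 to 9.51 in those of spinal cord. Slc6a5, the glycine transporter of inhibitory cord neurons, was at 60.6 to 75.1 RPKM in spinal cord and at 0.04 or less in cortex. Markers of neighbouring regions differed among the cortex libraries. Summed striatal markers (11 of 12 genes listed) were at 108 to 139 RPKM in 4 of them (NTg 6322, F08 6319 and 6320, F112 6316) and at 373 to 995 RPKM in the other 7, and choroid plexus markers (8 genes) summed to 2.07 to 758 RPKM.

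In NTg cortex the order of mean levels was Sst, Cck, Gad1, Slc32a1, Npy, Pvalb, Gad2, Vip, Reln and Lhx6. Sst stood highest at 249 ± 19.8 RPKM (SD, n = 4), and its NTg libraries did not overlap those of Cck, next at 119 ± 14.1. The NTg ranges of Cck and Gad1 (61.1 ± 19.9) and those of Gad2 (23.5 ± 7.94) and Vip (8.79 ± 2.80) were also apart. The other neighbours overlapped: Gad1 with Slc32a1 (49.4 ± 14.7), Slc32a1 with Npy (43.6 ± 10.6), Npy with Pvalb (32.1 ± 19.7), Pvalb with Gad2, Vip with Reln (7.47 ± 1.91), and Reln with Lhx6 (5.65 ± 0.794). Within single libraries Sst was above Cck in 11 of 11 and Gad2 above Vip in 11 of 11, whereas Slc32a1 was above Npy in 6 of 11.

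In NTg spinal cord the order was Sst, Slc32a1, Pvalb, Gad1, Cck, Gad2, Npy, Reln, Vip and Lhx6. Sst was at 92.2 ± 15.4 RPKM, Slc32a1 at 72.4 ± 3.41, Pvalb at 67.9 ± 3.96 and Gad1 at 50.1 ± 2.19 (SD, n = 4 each). Sst exceeded Slc32a1 in 12 of 12 libraries and Pvalb exceeded Gad1 in 12 of 12, while Slc32a1 was above Pvalb in 8 of 12. Cck (23.4 ± 2.45) was above Gad2 (20.5 ± 0.669) in 7 of 12, and Gad2 above Npy (18.8 ± 5.34) in 9 of 12. The NTg ranges of Cck and Gad2 were just apart, at 21.4 and 21.3 RPKM for the nearest libraries, whereas those of Gad2 and Npy overlapped, as did those of Sst, Slc32a1 and Pvalb in that order. Reln was at 9.74 ± 0.438 and Vip at 1.33 ± 0.268. Lhx6 was near 0, at 0.00866 to 0.0588 RPKM over all 12 libraries, below the mean of 0.5 RPKM needed to enter the tests, so 9 of the 10 genes were tested in spinal cord.

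The 2 tables were scaled separately, and brain and cord were sequenced on different platforms, so levels in the tissues are set side by side only. Over all libraries, Sst in cortex ran from 201 to 275 RPKM, and Sst in spinal cord from 73.4 to 110.5. Cck (72.9 to 178 against 16.3 to 26.9), Npy (30.6 to 59.0 against 11.3 to 26.1), Vip (6.40 to 12.6 against 0.939 to 1.57) and Lhx6 likewise had their whole cortex range above their cord range. Pvalb was the reverse, with cortex at 13.4 to 59.9 and spinal cord at 63.6 to 72.5. The general GABA genes overlapped between tissues, with Gad1 at 39.4 to 85.2 and 47.6 to 53.3, Gad2 at 12.9 to 38.7 and 18.9 to 21.3, and Slc32a1 at 27.5 to 70.9 and 51.1 to 77.3 RPKM. Reln overlapped as well.

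**Figure D1:**
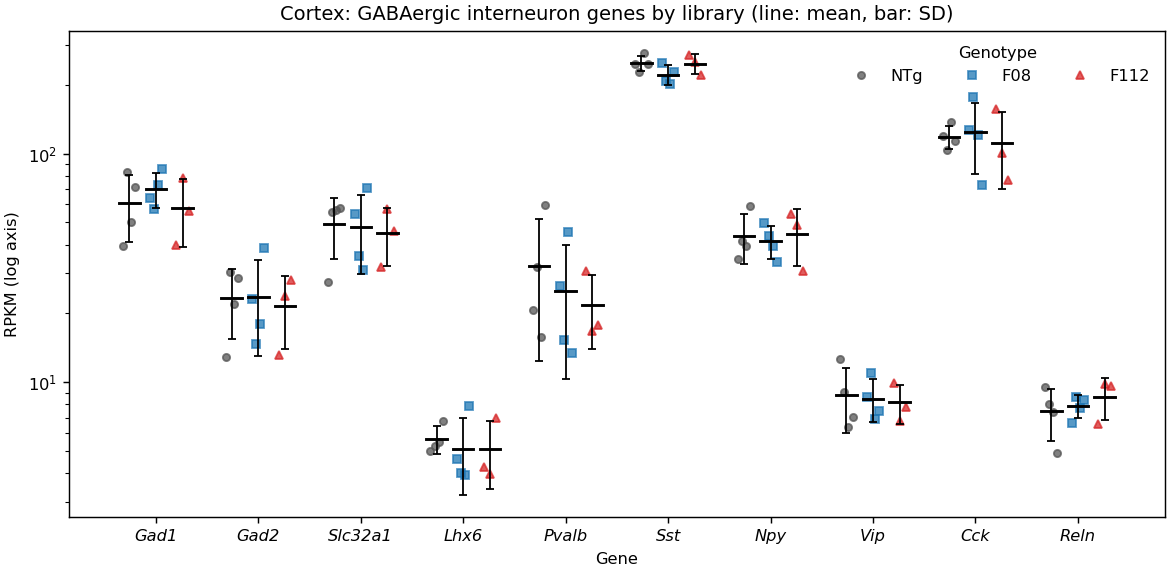
RPKM of the 10 genes in each cortex library on a log axis, by genotype (circles NTg, squares F08, triangles F112), with the mean (line) and SD (bar) of each group. The 3 genotypes overlap for every gene, and Pvalb is the most spread, from 13.4 to 59.9 RPKM.

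The genes of GABA synthesis and release varied widely among cortex libraries within each genotype. Gad1 measured 39.4, 83.3, 50.2 and 71.4 RPKM in the cortex of NTg mice 6322, 6323, 6326 and 6327, at 63.7, 57.3, 72.9 and 85.2 in F08 mice 6318 to 6321, and at 40.0, 78.0 and 56.2 in F112 mice 6316, 6317 and 6324. Each genotype held both low and high libraries, and the coefficient of variation over all 11 was 25.6%. For F112 against NTg the log2 difference of Gad1 was -0.06 (SE 0.264, interval -0.59 to 0.46, limma adjusted p = 1.00). It was -0.46 (limma adjusted p = 0.751) without the 3 libraries rich in Ttr, a choroid plexus transcript (NTg 6322 and 6326, F08 6320). All log2 differences are of RPKM plus 0.5, first group minus second.

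Gad2 was at 12.9, 30.3, 22.0 and 28.7 RPKM in NTg, at 23.2, 14.7, 18.1 and 38.7 in F08 and at 13.1, 23.8 and 27.9 in F112, in the same order of mice. Slc32a1 was at 27.5, 55.7, 56.5 and 57.9 RPKM in NTg, at 54.3, 35.5, 31.0 and 70.9 in F08 and at 31.9, 57.3 and 45.7 in F112. Both genes overlapped between all genotypes, and for both, the low libraries of every genotype were those with few striatal transcripts. In the 4 libraries with the low striatal sums Slc32a1 ran from 27.5 to 35.5 RPKM, and in the other 7 from 45.7 to 70.9, with no overlap. Gad2 ran from 12.9 to 18.1 in the 4 and from 22.0 to 38.7 in the 7, again with no overlap. Chat, the acetylcholine-synthesizing enzyme (0.105 to 0.279 against 1.35 to 3.12 RPKM), and Dlx6, a transcription factor of forebrain GABA neurons whose reads may include those of the antisense gene Dlx6os1 (1.78 to 2.47 against 3.71 to 6.39), were apart in the same way. Gad1 overlapped, at 39.4 to 72.9 in the 4 and 50.2 to 85.2 in the 7. The split was made from the data and is given as a description, and the part of striatal tissue in these levels was not tested.

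The markers of cortical interneuron classes did not separate on that split. Sst was at 201 to 269 RPKM in the 4 libraries and 221 to 275 in the 7, and Lhx6, Pvalb, Npy, Vip, Cck and Reln overlapped as well. Cck leaned the other way, at 120 to 178 RPKM in the 4 and 72.9 to 137 in the 7, as did the excitatory vesicular glutamate transporter Slc17a7, at 253 to 305 and 166 to 264. With the striatal sum as a covariate, the SE of the Slc32a1 difference between F112 and NTg in cortex went from 0.322 to 0.109, and the log2 difference from -0.11 to 0.00, with an adjusted p of 1.00. Summed striatal markers ranged from 109 to 995 RPKM among NTg libraries, from 108 to 672 among F08, and from 139 to 699 among F112, so every genotype held libraries of both kinds.

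**Figure D2:**
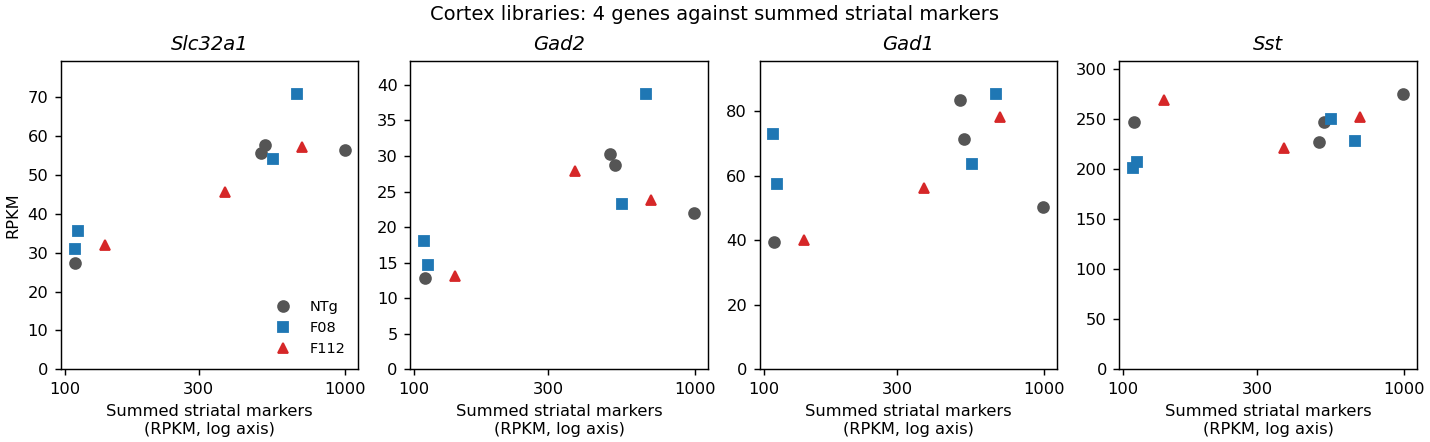
RPKM of Slc32a1, Gad2, Gad1 and Sst (vertical axes, from 0) against the summed RPKM of 11 striatal markers (log axis) in the 11 cortex libraries, by genotype. Slc32a1 and Gad2 are low in the 4 libraries at 108 to 139 RPKM of striatal markers, whereas Sst lies between 201 and 275 RPKM throughout.

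Lhx6 was at 5.01, 5.27, 5.51 and 6.80 RPKM in NTg cortex, at 4.63, 3.99, 3.92 and 7.90 in F08 and at 4.26, 3.98 and 7.01 in F112. The highest library of each genotype lay at 6.80 to 7.90, and the groups overlapped.

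Pvalb was the most variable of the 10 in cortex, with a coefficient of variation of 54.8%. It was at 20.7, 32.1, 15.7 and 59.9 RPKM in NTg, at 26.3, 15.3, 45.6 and 13.4 in F08 and at 30.6, 16.8 and 17.8 in F112. NTg mouse 6327 and F08 mouse 6320 were the highest, and the lowest libraries of the 3 genotypes lay close together at 13.4 to 16.8. The log2 difference was -0.42 for F112 against NTg (SE 0.467, interval -1.36 to 0.51, limma adjusted p = 1.00). Without the 3 Ttr-rich libraries it was -1.05 (limma adjusted p = 0.494), a fit that leaves 2 NTg libraries. F08 against NTg also moved in that fit, from -0.33 to -1.30 (limma adjusted p = 0.268). Among the 11 fits that each left out 1 cortex library, F112 against NTg ran from -0.70 to -0.06, and F08 against NTg from -0.67 to 0.03.

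Sst was the steadiest, with a coefficient of variation of 9.93%. It was at 246, 227, 275 and 247 RPKM in NTg, 249, 207, 201 and 228 in F08 and 269, 252 and 221 in F112. The 2 lowest libraries were F08, and the other 2 F08 libraries lay within the NTg range. The log2 difference for F112 against NTg was -0.01 (SE 0.107, interval -0.22 to 0.20, limma adjusted p = 1.00).

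Of the other peptides, Npy, which is made by several interneuron classes, was at 43.6 ± 10.6 RPKM in NTg, 41.6 ± 6.80 in F08 (SD, n = 4 each) and 44.7 ± 12.4 in F112 (n = 3). Vip, the peptide of interneurons that mainly contact other interneurons, was at 8.79 ± 2.80, 8.49 ± 1.81 and 8.16 ± 1.59. Cck, cholecystokinin, was at 119 ± 14.1, 124 ± 42.9 and 111.5 ± 41.3, and was more spread in both transgenic groups than in NTg. Reln, which guides layering in development and is kept by interneurons in the adult, was at 7.47 ± 1.91, 7.85 ± 0.9 and 8.66 ± 1.81. The genotypes overlapped for all 4.

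In cortex, 0 of the 10 genes passed in any genotype comparison with limma at an adjusted p under 0.05, and 0 had an unadjusted p under 0.05. Among all 13865 genes tested, 0.00721% passed for F112 against NTg (1 gene, mouse C9orf72), 0% for F08 against NTg and 0% for F112 against F08. An unadjusted p under 0.05 was found for 1.97%, 2.61% and 2.47% of all genes. Groups did not overlap for 3.05%, 1.69% and 3.57% of all genes, and for 0 of the 10. For F112 against NTg the differences of the 10 ran from -0.42 (Pvalb) to 0.21 (Reln), with 8 below 0 (56.4% of all genes were) and a median of -0.09 beside -0.02 over all genes. For F08 against NTg they ran from -0.33 (Pvalb) to 0.24 (Gad1), with a median of -0.04 beside 0.00. For F112 against F08 they ran from -0.30 (Gad1) to 0.16 (Sst), with a median of -0.05 beside -0.02. The 3 comparisons share libraries. The SEs of these differences were 0.0986 to 0.467, against a median of 0.155 over all genes for F112 against NTg.

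Cortex libraries also differed in alignments. The 5 with the most (NTg 6323 and 6327, F08 6320 and 6321, F112 6324) were set apart from the other 6, and the F112 against NTg difference was taken within each class. It had opposite signs in the 2 classes for 8 of the 10 genes. The share of all genes that did so was not computed, so the count says nothing particular about these genes. Pvalb was at -1.28 among the 5 and 0.32 among the 6, Gad1 at -0.45 and 0.33, and Sst at -0.10 and 0.00. The class of 5 holds 1 F112 library.

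**Figure D3:**
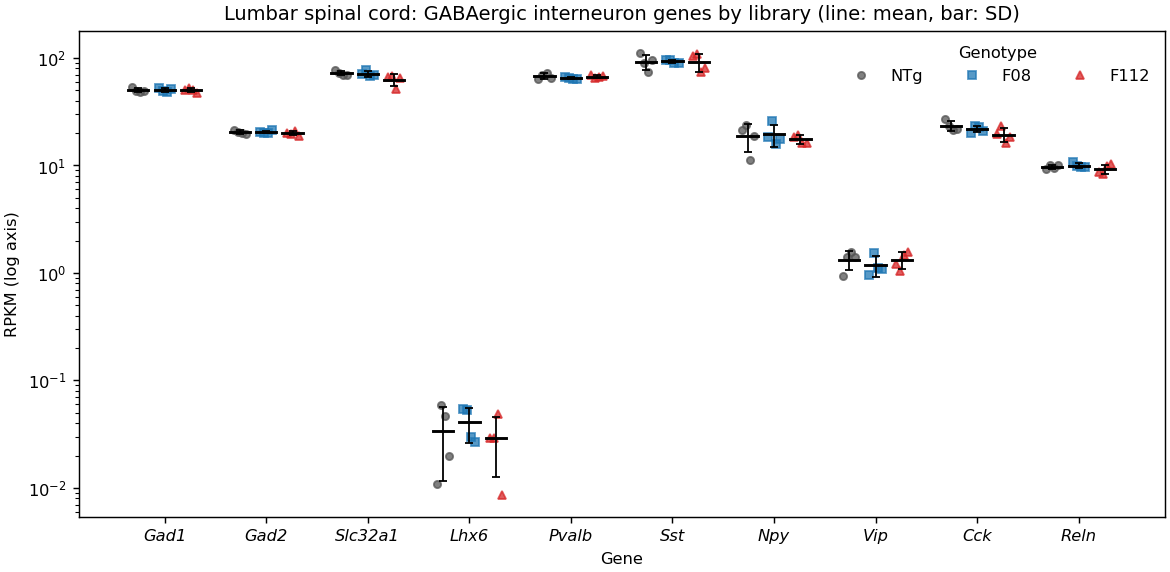
RPKM of the 10 genes in each spinal cord library on a log axis, by genotype (circles NTg, squares F08, triangles F112), with the mean (line) and SD (bar) of each group. Gad1, Gad2 and Pvalb hardly vary, Slc32a1 and Cck have their lowest library in F112, and Lhx6 lies at 0.0588 RPKM or less.

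In spinal cord the coefficient of variation was lower than in cortex for 7 of the 10 genes, about the same for Npy (20.8% in both) and higher for Sst (13.3% against 9.93%) and for Lhx6, which was near 0 there. Depth, platform and the marker sums of other regions differ between the tissues, and their part in the spread was not tested. Gad1 measured 53.3, 49.2, 48.5 and 49.2 RPKM in cords of NTg mice 6322, 6323, 6326 and 6327, at 52.2, 48.8, 48.1 and 51.3 in F08 mice 6318 to 6321 and at 50.8, 52.7, 50.2 and 47.6 in F112 mice 6316, 6317, 6324 and 6325. All 3 groups covered nearly the same range, with a coefficient of variation of 3.79%. The log2 difference for F112 against NTg was 0.01 (SE 0.041, interval -0.07 to 0.09, limma adjusted p = 0.977). Gad2 was at 20.5 ± 0.669 RPKM in NTg, 20.5 ± 0.56 in F08 and 19.9 ± 0.825 in F112 (SD, n = 4 each), and the groups overlapped. The ratio of Gad1 to Gad2 was 2.38 to 2.66 over the 12 cord libraries and 2.01 to 4.04 over the 11 cortex libraries.

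Slc32a1 was the 1 gene of the 10 whose groups did not overlap in a comparison. It was at 77.3, 72.3, 70.2 and 69.9 RPKM in NTg, at 70.5, 77.1, 67.3 and 68.8 in F08 and at 66.9, 67.9, 51.1 and 64.4 in F112. All F112 libraries lay below all NTg libraries, the nearest of each being 67.9 and 69.9 RPKM, while F08 overlapped both groups. The log2 difference for F112 against NTg was -0.22 (SE 0.074, unadjusted p = 0.0105) and did not pass (limma adjusted p = 0.606). For F112 against F08 it was -0.19 (SE 0.074, unadjusted p = 0.0240; limma adjusted p = 0.440).

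Cck was at 26.9, 23.3, 21.4 and 22.0 RPKM in NTg cord, at 20.2, 23.1, 22.6 and 21.1 in F08 and at 19.8, 23.04, 16.3 and 18.5 in F112. Of the F112 libraries 3 lay below all NTg libraries and 1 (mouse 6317) lay among them. The log2 difference for F112 against NTg was -0.27 (SE 0.088, unadjusted p = 0.00827) and did not pass (limma adjusted p = 0.573).

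F112 mouse 6324 gave the lowest Slc32a1 and the lowest Cck of the 12 cord libraries, and it also stood apart in base composition. GC-rich genes (58.3% GC or more, at or above the 90th percentile) minus GC-poor genes (43.2% or less, at or below the 10th) deviated by -0.33 on the log2 scale in that library and by -0.08 to 0.12 in the other 11. Slc32a1 (61.92% GC) and Cck (58.21%) are the most GC-rich of the 10. Without mouse 6324 the F112 against NTg difference of Slc32a1 was -0.12 (unadjusted p = 0.0179; limma adjusted p = 0.950), and against F08 it was -0.09 (limma adjusted p = 0.747). With each library's dependence on GC content removed, an alternative added after the data were seen, it was -0.12 (limma adjusted p = 0.595) and -0.06 (limma adjusted p = 0.822). For Cck the F112 against NTg difference was -0.19 without mouse 6324 and -0.21 with the GC correction. F112 mouse 6325, whose ribosomal precursor Rn45s was at 459 RPKM against 31.5 to 82.6 in the other 11, was left out in another fit, where the Slc32a1 difference was -0.23. In mouse 6324 Gad1 (50.2 RPKM) and Gad2 (20.9 RPKM) lay within the range of the others. Beyond these fits, the part of base composition or of mouse 6324 in the differences was not tested.

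**Figure D4:**
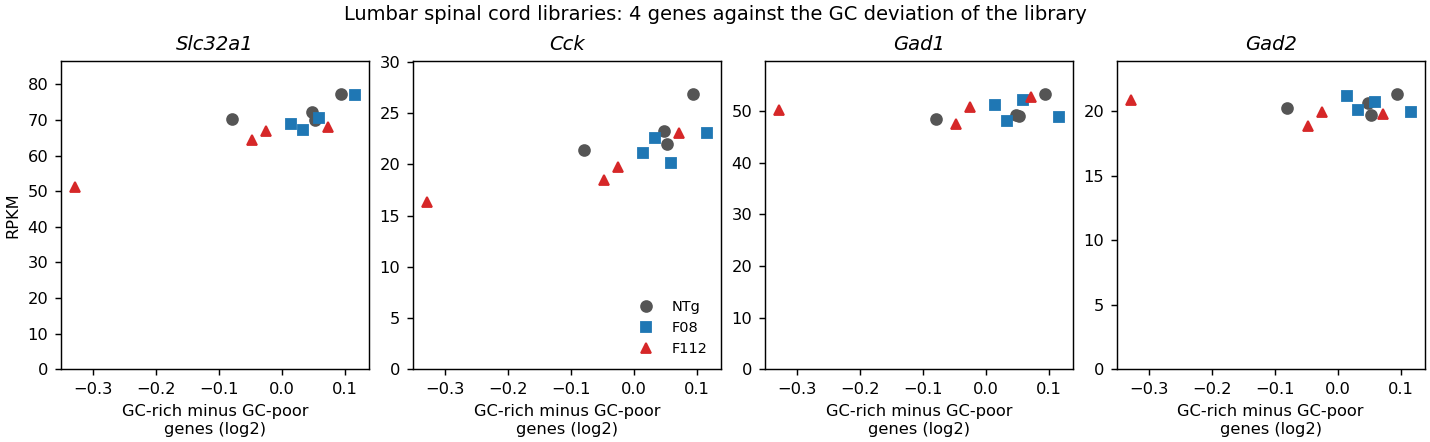
RPKM of Slc32a1, Cck, Gad1 and Gad2 (vertical axes, from 0) in the 12 spinal cord libraries against the difference between GC-rich and GC-poor genes in the library (log2), by genotype. F112 mouse 6324, at -0.33, holds the lowest Slc32a1 and Cck values, but not the lowest Gad1 or Gad2.

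Pvalb was at 63.6, 69.7, 72.5 and 65.8 RPKM in NTg, 66.1, 65.6, 64.3 and 63.6 in F08 and 68.8, 64.6, 66.4 and 68.4 in F112 cord. The groups overlapped, and the coefficient of variation was 4.09%, beside 54.8% in cortex. The log2 difference for F112 against NTg was -0.02 (SE 0.039, interval -0.09 to 0.06, limma adjusted p = 0.946). Markers of dorsal root ganglion neurons, a source of Pvalb transcript outside the cord, were a list of 6. Only 2 of them, Prph and Isl2, reached the level needed to be tested, and 0 passed. The rest fell below that level, so the list cannot measure ganglion transcripts, and their part in Pvalb was not tested.

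Sst was at 110.5, 89.1, 73.4 and 95.7 RPKM in NTg, 96.5, 95.4, 90.0 and 90.2 in F08 and 105, 109, 73.5 and 80.4 in F112 cord. NTg and F112 each spanned about the same range, and the F08 libraries lay inside it. The log2 difference for F112 against NTg was -0.01 (SE 0.122, interval -0.25 to 0.23, limma adjusted p = 0.988). Npy ran from 11.3 to 23.6 RPKM among NTg libraries, 15.9 to 26.1 among F08, and 16.0 to 19.2 among F112. Vip was at 0.939 to 1.55, 0.964 to 1.55 and 1.05 to 1.57, and Reln at 9.21 to 10.2, 9.62 to 10.7 and 8.27 to 10.3. All 3 overlapped between genotypes.

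In spinal cord, 0 of the 9 genes tested passed in any comparison with limma at an adjusted p under 0.05, beside 0.00723%, 0.00723% and 0.0217% of 13839 genes for F112 against NTg, F08 against NTg and F112 against F08. For F112 against NTg, an unadjusted p under 0.05 was found for 2 of the 9 (Slc32a1 and Cck, both lower), and for 7.11% of all genes, or 4.91% on the lower side. Groups did not overlap for 1 of the 9 (Slc32a1), and for 3.07% of all genes, or 2.1% on the lower side. For F112 against F08 an unadjusted p under 0.05 was found for 1 of the 9 (Slc32a1, lower), and for 10.4% of all genes, or 8.01% on the lower side, while groups did not overlap for 0 of the 9 and 5.54% of all genes. For F08 against NTg the shares of all genes were 4.1% and 4.09%, with 0 of the 9 in both. The differences ran from -0.27 (Cck) to 0.01 (Gad1) for F112 against NTg, with a median of -0.04 beside -0.01 over all genes. They ran from -0.12 (Vip) to 0.07 (Npy) for F08 against NTg and from -0.19 (Slc32a1) to 0.12 (Vip) for F112 against F08.

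**Figure D5:**
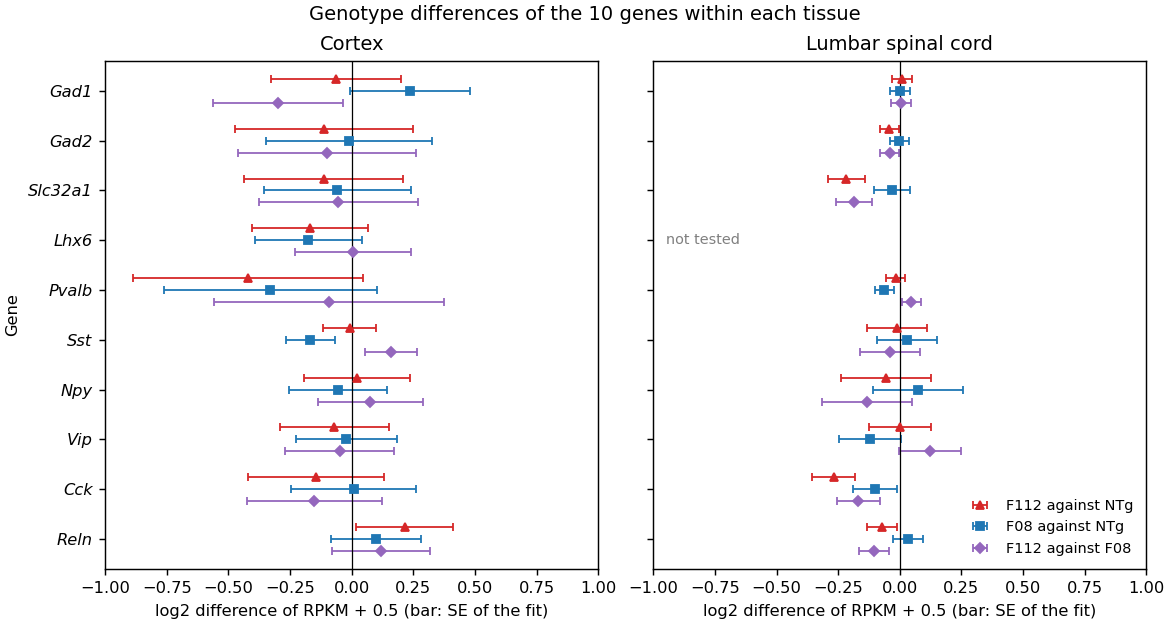
log2 difference of RPKM plus 0.5 for each gene in cortex (left) and spinal cord (right), with the SE of the fit as a bar, for F112 against NTg (triangles), F08 against NTg (squares) and F112 against F08 (diamonds). The SE runs from 0.0986 to 0.467 in cortex and from 0.0376 to 0.182 in cord, where Slc32a1 and Cck lie lowest for F112 against NTg. Lhx6 was not tested in cord.

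The cortex difference minus the cord difference was tested over all 23 libraries for the 9 genes kept in both tables. With limma 0 of 9 passed at an adjusted p under 0.05 in the 3 genotype comparisons, and 0 had an unadjusted p under 0.05. Of 13101 genes, 0.00763%, 0.00763% and 0% passed for F112 against NTg, F08 against NTg and F112 against F08, and 3.58%, 2.94% and 4% had an unadjusted p under 0.05. For F112 against NTg the values ran from -0.40 (Pvalb, SE 0.474) to 0.29 (Reln, SE 0.206). Slc32a1 had a tissue difference of 0.10 (SE 0.336; limma adjusted p = 1.00), so its cord and cortex differences were not shown to differ.

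Related genes were read in 5 lists. They cover GABA handling, interneuron transcription factors, subtype markers, peptide receptors and inhibitory neurons of the cord. In cortex 0 genes of any list passed with limma at an adjusted p under 0.05, and at an unadjusted p under 0.05 there were 0 for F112 against NTg. Of 15 genes that handle GABA (transporters, catabolic enzymes, synapse scaffolds and GABA-B receptors) 11 were below 0 for F112 against NTg, beside 56.4% of all genes, with a median of -0.02, the same as all genes. For F08 against NTg the smallest p values among interneuron transcription factors belonged to Sp8, which marks interneurons of the caudal ganglionic eminence and olfactory bulb, and Dlx1. Sp8 was at 0.25 to 1.99 RPKM in NTg and 1.86 to 2.56 in F08 (log2 difference 1.45, SE 0.480, unadjusted p = 0.0109; limma adjusted p = 1.00), and Dlx1 at 3.04 to 11.1 and 8.50 to 13.4 (1.03, SE 0.376). Among subtype markers the smallest p values belonged to Th (1.98, SE 0.757) and Calb2 (1.55, SE 0.629), and among peptide receptors to Vipr2 (1.14, SE 0.403) and Lrp8 (0.23, SE 0.120). Olfactory bulb markers, a list of 4 that also holds Th, summed to 3.15 to 36.6 RPKM for NTg, 28.6 to 38.3 for F08, and 3.97 to 49.4 for F112, and their part in these differences was not tested.

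In spinal cord 0 genes of the 5 lists passed with limma either. Of 15 genes of cord inhibitory neurons 11 were below 0 for F112 against NTg, as were 56.3% of all genes, with a median of -0.10 beside -0.01 over all genes. The smallest p values belonged to Lhx5 and En1, transcription factors of inhibitory cord lineages. Lhx5 was at 1.97 to 2.31 RPKM for NTg, 1.81 to 2.34 for F08, and 1.19 to 1.82 for F112 (log2 difference F112 against NTg -0.34, SE 0.095; limma adjusted p = 0.521). En1 was at 0.731 to 0.876, 0.643 to 0.765 and 0.512 to 0.612 (-0.25, SE 0.070; limma adjusted p = 0.521). All 9 tested interneuron transcription factors were below 0, with a median of -0.05, but 7 of the 9 were without mouse 6324 and 8 of the 9 with the GC correction. Maf, one of them, was at -0.17 (SE 0.078; limma adjusted p = 0.698). The F112 libraries did not overlap NTg for Lhx5 or En1. Without mouse 6324 their differences were -0.24 and -0.26, and with the GC correction -0.28 and -0.20, with limma adjusted p from 0.387 to 0.928. In those fits 11 of the 15 genes of cord inhibitory neurons were again below 0, with medians of -0.06 and -0.07, and 0 passed.

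Of the 15 GABA-handling genes 12 were below 0 for F112 against NTg in spinal cord, beside the 56.3% of all genes, with a median of -0.04, and the smallest p values belonged to Gabbr2, a GABA-B receptor subunit (-0.12, SE 0.041), and Slc32a1. For F112 against F08 the GABA transporter Slc6a11 was at -0.13 (SE 0.038; limma adjusted p = 0.406). Of 25 subtype markers 14 were above 0 for F112 against NTg and 11 below. The smallest p values belonged to Chodl (0.26, SE 0.080) and Kcnc1, a potassium channel of fast-spiking cells (-0.15, SE 0.049). Chodl marks Sst cells with Nos1 in cortex, and which cells hold it in spinal cord was not tested. Of 12 peptide receptors 8 were above 0 and 4 below, and the smallest p values belonged to the Npy receptor Npy1r (0.19, SE 0.068) and the Sst receptor Sstr3 (-0.11, SE 0.059). Markers of all neurons summed to 2523 to 2635 RPKM for NTg, 2473 to 2632 for F08, and 2487 to 2652 for F112, so the sums of all neurons overlapped. The sum of the 16 cord inhibitory genes was at 262 to 271 RPKM for NTg, 261.02 to 276 for F08, and 248 to 260.6 for F112. All F112 libraries lay below all others, but only just apart from F08. Calb2, a gene of that list, was alone at 127 to 147 RPKM over the cord libraries. In F112 mouse 6325 the sum was 260.6 and Calb2 134.1 RPKM, and in NTg mouse 6326 they were 265.8 and 143.7. Calb2 differed between these libraries by more than the sum did. Without Calb2, F112 and NTg therefore overlapped. The sum of the 16 GABA-handling genes was at 863 to 913, 886 to 906 and 833 to 878 RPKM, so F112 lay below F08 and overlapped NTg. These sums were not tested, and they weigh abundant genes most.

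The genes most like each marker over the libraries of a tissue were listed by Pearson's r of log2 levels among the genes kept. Over the 11 cortex libraries they were Slco5a1 (r = 0.967), Tceal3 (0.960) and Sufu (0.938) for Gad1, Ifit1 (0.940), Fam104a (0.935) and Cdr2l (0.926) for Pvalb, and Gpn2 (0.912), Socs5 (0.903) and Extl2 (0.900) for Sst. Vip was most like Gpc6 (0.925), Npy most like Ubtd1 (0.943) and Reln most like Pdzrn4 (0.891). Over the 12 cord libraries Sst was most like Hap1 (0.960), Cyp46a1 (0.948) and Ly6h (0.948), and Reln most like Vwa8 (0.951), Heatr5b (0.938) and Ptch1 (0.918). The nearest to Gad1 there was Zscan18 (0.880), to Pvalb Vmn1r58 (0.877), to Npy Lgals3bp (0.901) and to Vip P2ry14 (0.880). Each is the highest of 13864 values in cortex or 13838 in spinal cord, the libraries also differ in depth and in markers of other regions, which all genes share, and no gene appeared for the same marker in both tissues.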

How the data were processed

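Total RNA from frozen cortex and lumbar spinal cord was extracted with Trizol and a column kit, per the labels' protocols, which name Ion Torrent for brain, Illumina for spinal cord, and a TruSeq kit for an unnamed tissue. The authors deposited RPKM values, 1 table per tissue. The submitters' processing notes name TopHat2 2.0.8b, Partek, mm9 and mm10. The build of each table, the counting of reads per gene and the use of strand are each not given in the sources used here. Libraries of a group come from differently numbered mice.

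RPKM was used as scaled. Genes whose mean reached 0.5 RPKM in a tissue were fitted on log2(RPKM + 0.5) with limma 3.58.1 (R 4.3.3), empirical Bayes with a mean-variance trend, the 3 genotypes in 1 fit, two-sided, with Benjamini-Hochberg adjustment over all genes and a threshold of 0.05. Tissue differences were fitted over the 23 libraries. The code was tested on simulated data. Values per library, ratios, motifs and sums were computed in Python 3.11.15 with pandas 2.3.3 and numpy 2.4.6. Symbols were matched to GENCODE M21 (GRCm38) for GC content. The striatal marker Drd1 is listed as Drd1a.

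Mouse numbers recur in both tissues, so libraries pair by animal. Same-mouse deviations from group means correlated at 0.0268 to 0.231 (median 0.113) over 13101 genes in 11 animals, 8 of them over 0.1. For 4 of the 11 the cortex library correlated most with the cord library of its own mouse. Correlations between different mice are not reported here.

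The 10 genes, lists and tests were chosen with earlier results of these data known. All 10 genes are named in each tissue. A gene's own difference is given where its groups did not overlap or its unadjusted p was under 0.05. It is always given for Gad1, Pvalb and Sst between F112 and NTg. Intervals printed beside a difference run from 2 SE below it to 2 SE above it. For related lists, the 2 genes with the smallest p are given where none passed, and for likeness the 3 highest correlations or the first of them. Some genes that this rule takes are not reported here. Lhx5 and En1 were followed further, and Xist, Rn45s, Slc6a5, Chat, Dlx6 and Slc17a7 named, after their values were seen. The GC correction, the striatal covariate and subset, the leave-outs for tissue differences and the refits of cord lists were also added after the data were seen. Read counts were not analysed here.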

Additional observations from a re-analysis of the deposited data

Results flagged for a closer look

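Of 47 groups of 4 libraries checked for a single library far from the others, 2 were picked out, and chance picks about 1 in 20. Slc32a1 was at 27.5 RPKM in the cortex of NTg mouse 6322, with the nearest NTg library at 55.7 RPKM, a gap of 0.930 of the group's range. That library also had a low sum of striatal markers, and the part of this in the low value was not tested. Gad1 was at 53.3 RPKM in the spinal cord of the same mouse, with the nearest NTg library at 49.2 RPKM, a gap of 0.854 of the range.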

How the results depend on the processing

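The count of the 10 genes that passed was 0 in all 9 comparisons and stayed 0 in each of 210 alternative fits (scaling, pseudocounts of 0.1 and 1, no filter or 5 RPKM, only the groups compared, alignments or striatal sum as a covariate, GC correction, library subsets and each library left out). Among the 10 genes, the smallest limma adjusted p in any of these fits was 0.0744. It was that of Pvalb in the tissue difference of F08 against NTg without the Ttr-rich libraries. With the animal as a replicate block the count was 0 in all 3 tissue differences, so the block changed no call. Of 1953 alternative values 199 changed sign, all of them values that had not passed. For F112 against NTg in cortex, Gad1 turned to 0.0923 with alignments as a covariate and fell to -0.458 without the Ttr-rich libraries, and Sst to 0.0114 with median-of-ratios scaling, 0.0228 with the GC correction, 0.0605 without the Ttr-rich libraries and 0.00351 with the striatal covariate. In spinal cord Pvalb turned to 0.0220 with alignments as a covariate, and Sst to 0.00156 with median-of-ratios scaling and 0.0290 with the GC correction. The causes were not tested. With each library left out in turn, Gad1 ran from -0.302 to 0.177 and Sst from -0.0713 to 0.0696 in cortex, and Gad1 from -0.0141 to 0.0384, Pvalb from -0.0470 to 0.0152 and Sst from -0.114 to 0.0895 in spinal cord. Cortex, with fewer alignments and wider spread, limits what can be resolved: the median SE for F112 against NTg was 0.155 there and 0.0558 in spinal cord.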
